A study of Mus musculus with 9 samples.

Results

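The 10 core circadian clock genes Arntl, Clock, Per1, Per2, Per3, Cry1, Cry2, Nr1d1, Dbp and Tef were followed in mouse kidney RNA. They were taken by gene symbol, and all 10 were found among the 54532 genes of the deposited table. Kidney messenger RNA was sequenced in 9 libraries, 3 for each of 3 groups of male c57BL/6j mice aged 4 months, kept with 12 hours of light a day. The study addressed stress of the endoplasmic reticulum in the kidney under hindlimb unloading (HU), a rodent model of weightlessness in which the hind limbs bear no load. Libraries PBA1 to PBA3 came from unloaded mice injected intraperitoneally with 4-phenylbutyric acid (4-PBA, a chemical chaperone) at 100 mg per kg per day, HU1 to HU3 from unloaded mice given vehicle, and GC1 to GC3 from untreated mice kept on the ground. As ground controls got no vehicle, HU against GC does not separate unloading from vehicle. The labels do not give the hour at which tissue was taken, so the time of day of each library is not known, and its part in any value below was not tested.

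The clock is a loop of transcription and repression. ARNTL (also called BMAL1) and CLOCK bind together to E-boxes and switch on the Per, Cry, Nr1d1, Dbp and Tef genes, whose PER and CRY products then block that activity, so that in tissues such as the kidney Arntl RNA peaks at about the opposite time of day from Per and Dbp RNA. NR1D1 (REV-ERB alpha) represses Arntl through ROR elements, and DBP and TEF bind D-boxes. In kidney the clock is known for timing salt and water handling in the tubule.

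These motifs were searched on both strands in the 250 bases before annotated starts, in RefSeq promoter sequences of GRCm38.p6. The E-box was CACGTG, found in 6.02% of all 32851 promoter windows; the D-box was TTATGTAA or TTATGCAA, found in 1.5%; and the ROR element was TAGGTCA, found in 2.23%. The first windows shown are those of Per3, which held 2 D-boxes (chr4:151044666-151044915, minus strand, 205 and 158 bases before the start), of Tef, which held 1 E-box (chr15:81811164-81811413, plus strand, 138 bases before the start), and of Arntl, which held none of the 3 motifs (chr7:113207215-113207464, plus strand). They are printed to show 1 window with D-boxes, 1 with an E-box and 1 with neither. Per3 had no E-box in its window, and the windows of Dbp, Nr1d1, Clock and Cry2 held none of the 3 motifs. Only exact letters in these 250 bases were searched, so a missing match does not show that a gene lacks the element. Tef and Arntl each had another window, which overlapped annotated exons. That of Tef also held 1 E-box, and that of Arntl none of the 3 motifs. The window of Dbp and some of Clock overlapped exons too. Capitals mark the motifs, and no annotated exon lies in the 3 windows printed here.
Per3: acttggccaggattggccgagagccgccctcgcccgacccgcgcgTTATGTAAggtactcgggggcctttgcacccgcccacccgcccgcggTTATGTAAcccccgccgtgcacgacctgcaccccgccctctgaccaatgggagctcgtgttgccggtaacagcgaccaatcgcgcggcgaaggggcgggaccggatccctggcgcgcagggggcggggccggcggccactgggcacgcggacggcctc
Tef: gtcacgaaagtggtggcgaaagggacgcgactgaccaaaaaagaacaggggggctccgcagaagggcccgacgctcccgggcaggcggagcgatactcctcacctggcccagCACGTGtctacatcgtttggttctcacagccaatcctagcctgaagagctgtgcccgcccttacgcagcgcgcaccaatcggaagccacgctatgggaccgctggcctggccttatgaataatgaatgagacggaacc
Arntl: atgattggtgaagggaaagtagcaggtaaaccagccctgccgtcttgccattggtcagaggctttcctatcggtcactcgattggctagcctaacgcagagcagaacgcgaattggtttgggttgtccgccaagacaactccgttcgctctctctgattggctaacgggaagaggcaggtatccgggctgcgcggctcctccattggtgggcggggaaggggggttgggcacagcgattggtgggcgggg

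For 3 other genes a window with a motif overlapped annotated exons, and only 30 bases around each motif are shown, on the strand of the gene. They are Per1 (chr11:69098771-69098800, plus strand, E-box; chr11:69098914-69098943, plus strand, D-box), Cry1 (chr10:85185097-85185126, minus strand) and Ciart (chr3:95882327-95882356, chr3:95882269-95882298 and chr3:95882255-95882284, all minus strand), a repressor of CLOCK and ARNTL that followed Dbp most closely below. Another window of Per1 held none of the 3 motifs. A match is a description of the letters and does not show binding in these kidneys.
Per1 E-box: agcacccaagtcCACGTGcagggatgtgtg
Per1 D-box: agggcctggcaTTATGCAAcccgcctccca
Cry1 E-box: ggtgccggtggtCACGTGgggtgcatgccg
Ciart E-box 1: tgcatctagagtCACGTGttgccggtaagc
Ciart E-box 2: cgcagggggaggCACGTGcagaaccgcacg
Ciart E-box 3: cgtgcagaaccgCACGTGtctgggaggggg

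Libraries held 7595631 to 15141784 reads assigned to genes. Mitochondrial genes took 13.7% to 18.9% of them in PBA1, PBA2, GC1 and GC2, 49.7% in GC3, and 63.7% to 79.3% in PBA3 and the 3 HU libraries. Reads outside the mitochondrial genome therefore ran from 1568888 in HU2 to 12893802 in GC2. The low clock genes are thus counted less precisely in HU and in PBA3. As all 3 HU libraries had a high share, differences of HU from the other groups cannot be fully told apart from it. Values are given as FPKM (reads per kilobase of gene, scaled per library by the authors), and intervals on reads are 95% and cover counting error only. Kidney identity was checked on markers: none of the 10 proximal tubule markers was at 0 in all libraries of a group, and their summed level was 8523 to 57507 FPKM in 4-PBA, 2612 to 3305 FPKM in HU and 49170 to 60381 FPKM in GC. Most of that sum is 1 gene, Kap, which averaged 30887 FPKM in 4-PBA, 2678 in HU and 52225 in GC. The sum therefore says little about the other markers. In bulk tissue fewer cells of a type and less RNA per cell cannot be told apart. Nothing in the labels says that each library is a separate mouse, so p-values measure the spread between these samples.

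Averaged over the 9 libraries, levels per length fell into 2 tiers. Tef (20.0 ± 8.46 FPKM), Dbp (18.6 ± 9.33 FPKM) and Nr1d1 (15.1 ± 6.64 FPKM; SD, n = 9) lay within their spread of each other. Per1 followed at 3.18 ± 2.11 FPKM, then Per2 at 2.04 ± 1.49, Clock at 2.01 ± 1.12, Per3 at 1.63 ± 1.14 and Cry2 at 1.24 ± 0.217 FPKM, again with neighbours within their spread. Cry1 (0.594 ± 0.433 FPKM) and Arntl (0.510 ± 0.399 FPKM) were lowest. They reached 1 FPKM in 2 libraries and in 1 library, short of the 3 needed for testing, so 8 of the 10 genes were tested.

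The activators came first. Arntl (chr7:113207465-113314126 in mm10, plus strand) was at 0.846, 0.0753 and 0 FPKM in PBA1, PBA2 and PBA3, at 0.668, 1.15 and 0.314 FPKM in HU1, HU2 and HU3, and at 0.164, 0.516 and 0.850 FPKM in GC1, GC2 and GC3. These rest on 159, 13 and 0 reads in the 4-PBA libraries, 30, 27 and 16 in HU and 24, 93 and 70 in GC; the 0 in PBA3 allows a level of up to 0.0640 FPKM (3 reads). Arntl was high in PBA1, HU2 and GC3, low in PBA2, PBA3 and GC1, and the groups overlapped.

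Clock, the partner of ARNTL (chr5:76209868-76304792, minus strand), had 1.60, 1.42 and 1.57 FPKM in PBA1 to PBA3, 4.47, 1.08 and 3.03 FPKM in HU1 to HU3, and 1.17, 1.35 and 2.46 FPKM in GC1 to GC3. Its levels were close in 4-PBA and wide in HU, where HU1 was highest and HU2 lowest of all 9 libraries. The pseudogene Ube2n-ps1, which lies on the same strand within Clock, was at 36.5 FPKM in HU1 and at 0.672 to 7.28 FPKM elsewhere, so reads may be split between them. Its part in the HU1 value was not tested.

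Among the repressors, Per1 (chr11:69095217-69109960, plus strand) was at 1.27, 1.96 and 7.23 FPKM in PBA1 to PBA3, 3.15, 5.14 and 0.864 FPKM in HU1 to HU3, and 4.42, 1.33 and 3.26 FPKM in GC1 to GC3. Each group thus held libraries both high and low in Per1, and the groups overlapped throughout. The group means were nearly alike, at 3.49 ± 3.26 FPKM in 4-PBA, 3.05 ± 2.14 in HU and 3.00 ± 1.56 in GC (SD, n = 3 each).

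Per2 (chr1:91415982-91459324, minus strand) had 0.588, 1.95 and 2.96 FPKM in PBA1 to PBA3, 0, 4.61 and 1.74 FPKM in HU1 to HU3, and 3.62, 0.827 and 2.09 FPKM in GC1 to GC3. HU held both extremes: HU1 had 0 reads, which allows up to 0.0858 FPKM, and HU2 had the highest level. Per3 (chr4:151003652-151044665, minus strand) had 0.671, 1.91 and 4.11 FPKM in PBA1 to PBA3, 1.03, 1.47 and 0.875 FPKM in HU1 to HU3, and 2.72, 0.778 and 1.07 FPKM in GC1 to GC3. PBA3 and GC1 were the high libraries, and HU sat in the lower range of both other groups. Per3 lies within Camta1 on the same strand; Camta1 was at 0 to 0.997 FPKM in the 9 libraries.

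The cryptochromes, partners of the PER proteins in repression, were low. Cry1 (chr10:85131700-85185064, minus strand) had 0.432, 0.548 and 1.39 FPKM in PBA1 to PBA3, 0, 1.06 and 0.839 FPKM in HU1 to HU3, and 0.200, 0.438 and 0.438 FPKM in GC1 to GC3. Its counts were 0 to 42 reads, and the groups overlapped; the 0 in HU1 allows up to 0.150 FPKM. Cry2 (chr2:92403646-92434043, minus strand) had 1.15, 1.30 and 1.19 FPKM in PBA1 to PBA3, 1.51, 1.37 and 1.45 FPKM in HU1 to HU3, and 1.36, 0.872 and 0.954 FPKM in GC1 to GC3. Its HU libraries lay above every library of the other groups, by a small margin over GC1, and it was the steadiest of the 10 genes.

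Nr1d1, the repressor of Arntl (chr11:98767932-98775333, minus strand), had 19.0, 9.62 and 13.0 FPKM in PBA1 to PBA3, 14.0, 16.5 and 30.4 FPKM in HU1 to HU3, and 10.1, 14.1 and 8.88 FPKM in GC1 to GC3. HU3 stood highest, and the HU range overlapped GC only between HU1 and GC2. Thra, a thyroid hormone receptor gene, overlaps Nr1d1 by 1075 bases on the opposite strand and was at 9.44, 6.27 and 6.26 FPKM in PBA1 to PBA3, 18.1, 11.7 and 13.4 FPKM in HU1 to HU3, and 4.37, 5.74 and 6.16 FPKM in GC1 to GC3. The strand setting used in counting is not given in the sources used here, so Nr1d1 and Thra reads in the overlap may not be told apart.

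The PAR bZIP factors were the most abundant. Dbp (chr7:45705088-45710203, plus strand) had 10.8, 24.5 and 31.6 FPKM in PBA1 to PBA3, 20.8, 28.6 and 13.9 FPKM in HU1 to HU3, and 23.3, 9.15 and 4.61 FPKM in GC1 to GC3. Tef (chr15:81802421-81826863, plus strand) had 12.6, 29.8 and 25.0 FPKM in PBA1 to PBA3, 8.58, 19.1 and 13.6 FPKM in HU1 to HU3, and 33.8, 14.8 and 22.6 FPKM in GC1 to GC3. Among the 4-PBA and GC libraries both were high in PBA2, PBA3 and GC1 and low in PBA1 and GC2, while in GC3 Dbp was at its lowest and Tef was not; the groups overlapped for both.

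**Figure D1:**
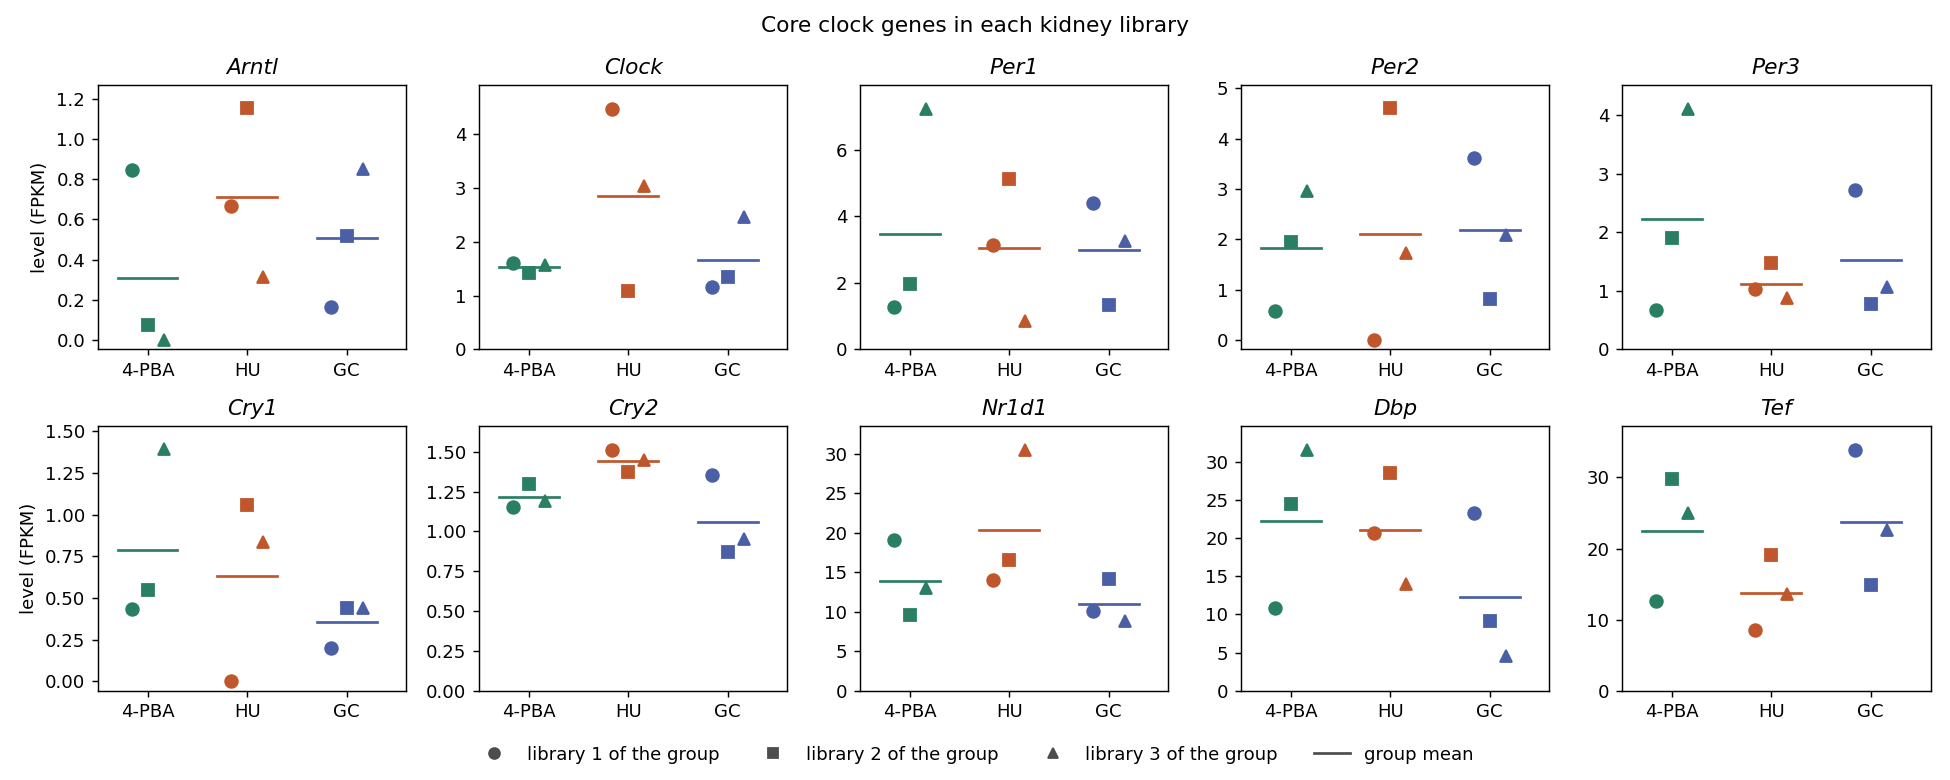
FPKM of each of the 10 clock genes (vertical axes, from 0) in 4-PBA, HU and GC libraries (3 each), 1 point per library, with a line at each group mean. Cry2 is nearly level, whereas Dbp runs from 4.61 FPKM in GC3 to 31.6 FPKM in PBA3 and the groups overlap.

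None of the 8 tested clock genes passed limma's test in any comparison. In HU against GC 0 of 8 were called at an adjusted p under 0.05, where 10.2% of the 12642 genes tested were called; in 4-PBA against HU it was 0 of 8 against 2.69%, and in 4-PBA against GC 0 of 8 against 0%. At an unadjusted p under 0.05 limma also gave 0 of 8 in each, where all genes gave 29.8%, 20.1% and 1.31% in that order of comparisons. With library weights 5 of 8 were under that level in 4-PBA against GC, and 0 were called (smallest limma adjusted p = 0.216). That weighted fit called 0 of all 12642 genes tested, and its share of all genes under the unadjusted level is not given here. With limma-voom on the recovered reads 0 of 8 were called in each comparison. Nr1d1 alone had an unadjusted p under 0.05 there, in HU against GC (limma-voom adjusted p = 0.134). The median difference of the 8 genes on the log2(FPKM + 1) scale was 0.10, 0.04 and 0.06, beside -0.03, 0.02 and -0.00 over all genes tested.

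In HU against GC the sizes were as follows. Nr1d1 averaged 20.3 ± 8.85 FPKM in HU and 11.0 ± 2.75 FPKM in GC (SD, n = 3 each) and differed by 0.77 ± 0.36 (SE) on the log2 scale, with a limma adjusted p of 0.181. Dbp averaged 21.1 ± 7.31 FPKM in HU and 12.3 ± 9.73 FPKM in GC, a log2 difference of 0.93 ± 0.56 (limma adjusted p = 0.288). For Tef the means were 13.8 ± 5.27 FPKM in HU and 23.8 ± 9.56 FPKM in GC, with a log2 difference of -0.74 ± 0.42 (limma adjusted p = 0.271). Clock differed by 0.46 ± 0.36 and Cry2 by 0.25 ± 0.23, and Per1, Per2 and Per3 by -0.06 ± 0.58, -0.26 ± 0.62 and -0.18 ± 0.43 on that scale. So Dbp and Tef, both E-box targets, pointed in opposite directions between these groups, each within 2 SE of no difference. Relative values matter here: rescaled to total reads, which counts mitochondrial reads as depth and moved the median of all genes to -0.78, Tef was called (-1.73, limma adjusted p = 0.0487) and Clock, Cry2, Nr1d1 and Dbp turned negative. With library weights Nr1d1 was called (1.14, limma adjusted p = 0.0281) and Dbp stood at -0.13. Of all 12642 genes tested, 2339 were called with total-read scaling and 3983 with library weights.

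In 4-PBA against HU, Tef had the smallest p, with 22.4 ± 8.88 FPKM in 4-PBA and 13.8 ± 5.27 FPKM in HU and a log2 difference of 0.65 ± 0.42 (limma adjusted p = 0.422). Clock differed by -0.50 ± 0.36, Nr1d1 by -0.49 ± 0.36 and Per3 by 0.47 ± 0.43 on the log2 scale, and the other 4 genes by -0.14 to 0.09. In 4-PBA against GC, Dbp averaged 22.3 ± 10.6 FPKM in 4-PBA and 12.3 ± 9.73 FPKM in GC, a log2 difference of 0.94 ± 0.56 (limma adjusted p = 1). The other 7 genes lay between -0.16 and 0.28 there. Groups did not overlap for 1 tested clock gene, Cry2, in HU against GC, where 37.7% of all genes tested did not overlap; for Cry2 again in 4-PBA against HU, where 20.3% did not; and for 0 in 4-PBA against GC, where 8% did not. Both comparisons with HU share the HU libraries, and those with GC share the GC libraries.

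**Figure D2:**
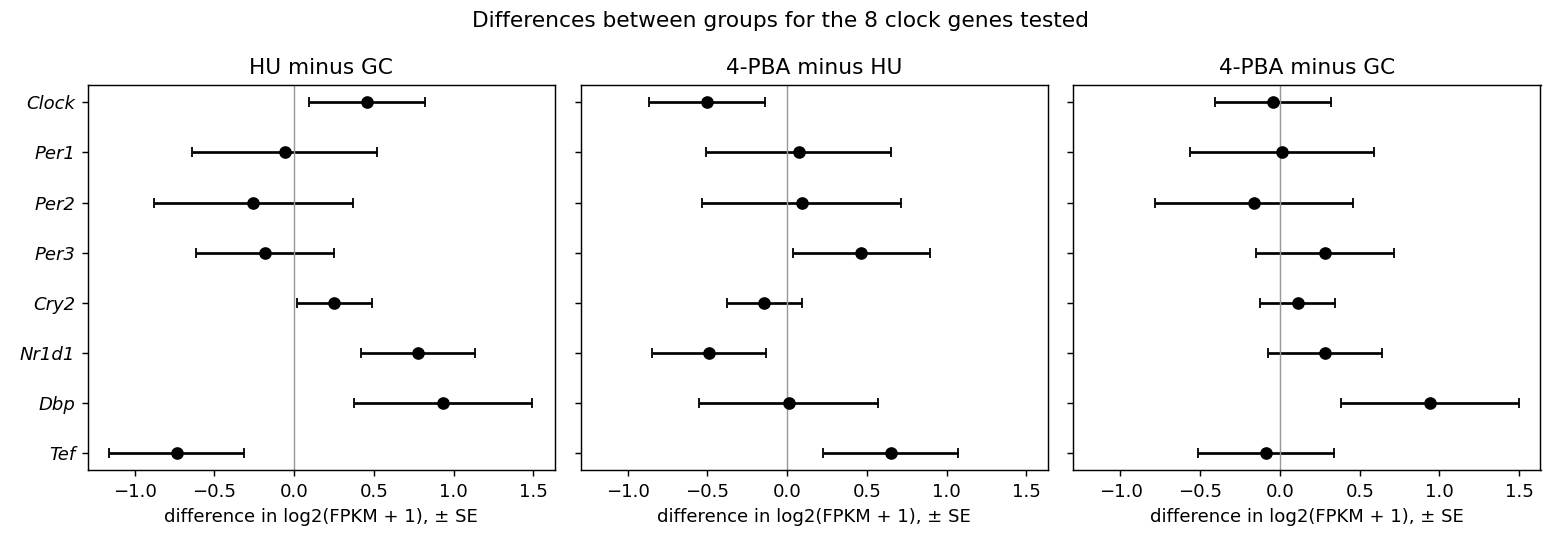
Differences in log2(FPKM + 1) between groups for the 8 tested clock genes (points, with bars of 1 SE from limma), HU minus GC, 4-PBA minus HU and 4-PBA minus GC from left to right. Dbp lies at 0.93 and Tef at -0.74 in HU minus GC, and no gene was called in any panel.

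For all clock genes but Cry2 the group label accounted for the smaller part of the variance, as it did for the median gene tested. These shares are raw sums of squares. With 3 libraries a group, part of the variance falls to the label even where groups do not differ. The within-group SD on the log2(FPKM + 1) scale was 0.91 for Per2, 0.84 for Per1 and 0.81 for Dbp, above the upper quartile of all genes tested (0.63; median 0.44), whereas Cry2, at 0.11, lay under the lower quartile (0.31). The group label accounted for 0.209% of the variance of Per1, 2.00% of Per2 and 14.1% of Per3, against a median of 34.7% over all genes tested. For Clock, Dbp and Tef it was 26.5%, 31.0% and 32.7%, nearer that median. For Nr1d1 it was 42.2% and for Cry2 57.6%. The share also depends on the few libraries, 3 a group.

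Libraries of 1 group were also compared in pairs. GC1 and GC2 both had a low mitochondrial share, yet GC1 exceeded GC2 4.38-fold in Per2 (interval 3.56 to 5.43, from 413 and 116 reads), 3.50-fold in Per3 (2.95 to 4.17), 3.33-fold in Per1 (2.80 to 3.97), 2.54-fold in Dbp (2.31 to 2.80) and 2.28-fold in Tef (2.18 to 2.39). GC2 in turn exceeded GC1 3.15-fold in Arntl (interval 1.99 to 5.16, from 93 and 24 reads) and 2.19-fold in Cry1 (1.13 to 4.51). Between these 2 control libraries the Per genes, Dbp and Tef were thus high where Arntl was low. GC3 followed only in Dbp: its Arntl was the highest of the 3 (0.850 FPKM) and its Dbp the lowest (4.61 FPKM). Per1, Per2, Per3 and Tef were nevertheless above GC2. Clock, at 0.863 of GC2, and Nr1d1, at 0.713, were less than 2-fold apart in GC1. In all, 7 of the 10 clock genes and 5 of the 8 tested ones were at least 2-fold apart, where 8.73% of all genes tested were.

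PBA2 and PBA1, also low in mitochondrial reads, lay apart in many clock genes too. PBA2 exceeded PBA1 3.32-fold in Per2 (interval 2.59 to 4.28), 2.84-fold in Per3 (2.36 to 3.43), 2.37-fold in Tef (2.26 to 2.49), 2.27-fold in Dbp (2.09 to 2.48) and 1.55-fold in Per1 (1.27 to 1.89). PBA1 exceeded PBA2 11.2-fold in Arntl (6.38 to 21.6, from 159 and 13 reads) and 1.98-fold in Nr1d1 (1.80 to 2.17). Of the 10 clock genes 5, and of the 8 tested 4, were at least 2-fold apart, where 14.1% of all genes tested were. The 2 pairs were looked at because they hold the 4 libraries of lowest mitochondrial share, a choice made with these values known. Npas2, which can take the place of CLOCK and was named after its values were seen, went the way of Arntl: 3 reads in GC1 and 85 in GC2 (a ratio of 0.0434, interval 0.00878 to 0.131), and 44 in PBA2 and 142 in PBA1 (0.337, interval 0.235 to 0.476).

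Ratios between clock genes of 1 library do not depend on how that library was scaled. Per3 over Arntl was 0.793 (interval 0.633 to 0.993), 25.3 (14.6 to 47.9) and at least 64.2 (Arntl at the 3-read floor) in PBA1, PBA2 and PBA3. It was 1.54, 1.28 and 2.79 in HU1, HU2 and HU3, and 16.6 (11.0 to 26.2), 1.51 (1.17 to 1.96) and 1.26 (0.930 to 1.73) in GC1, GC2 and GC3. PBA2, PBA3 and GC1 were thus far above the other 6 libraries, whose range was 0.793 to 2.79. The HU libraries all fell in the low range, which the other groups also held.

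Dbp over Nr1d1, both well counted, was 0.568, 2.55 and 2.42 in PBA1 to PBA3, 1.48, 1.73 and 0.458 in HU1 to HU3, and 2.31, 0.648 and 0.519 in GC1 to GC3. Dbp was the higher in 5 libraries and Nr1d1 in 4, with no library between 0.648 and 1.48, and each group held both kinds. Dbp over Arntl ran from 5.42 in GC3 and 12.7 in PBA1 to 325.6 in PBA2 and at least 493.5 in PBA3, with 31.1, 24.8 and 44.5 in HU1 to HU3. Its 3 highest libraries were PBA3, PBA2 and GC1 (142), the ones with the highest Per3 over Arntl. Both ratios divide by Arntl, which was lowest in these libraries (0, 0.0753 and 0.164 FPKM), so the match is largely built in. Dbp over Nr1d1, which does not divide by Arntl, was also highest in PBA2, PBA3 and GC1, with HU2 next at 1.73. Per3 over Clock and Nr1d1 over Arntl did not set these 3 apart. Per3 over Clock was 1.34 in PBA2 and 1.37 in HU2, and Nr1d1 over Arntl was 97.0 in HU3 and 61.3 in GC1.

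**Figure D3:**
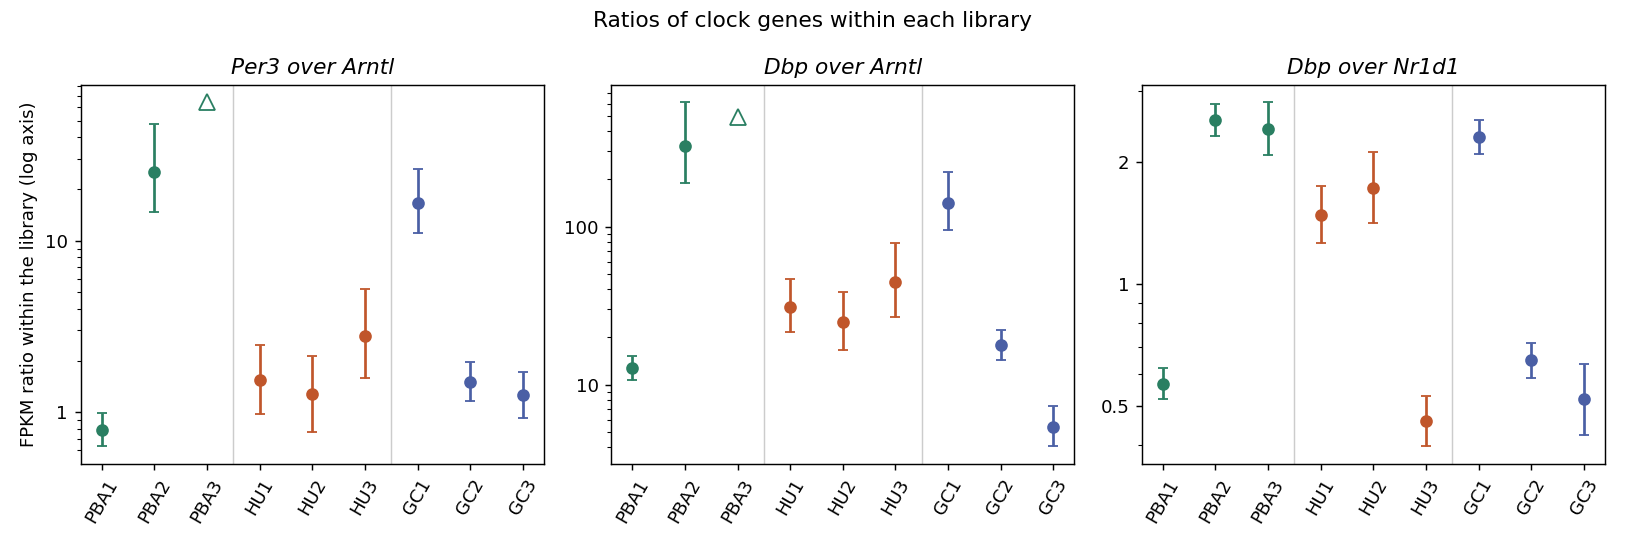
FPKM ratios of Per3 over Arntl, Dbp over Arntl and Dbp over Nr1d1 within each library (log axes; bars are 95% counting intervals, open triangles lower bounds with Arntl at 3 reads). PBA2, PBA3 and GC1 stand above the other libraries in the first 2 panels, which both divide by Arntl. HU3, PBA1, GC2 and GC3 lie under 1 in the last.

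Across all 9 libraries, 45 pairs of clock genes were correlated on log2(FPKM + 1), and 0 had an adjusted p under 0.05 by Pearson's r or Spearman's rho with exact permutation; 19 of the 45 had a negative r. Per2 and Tef had the highest r, 0.80 (exact permutation p = 0.010, adjusted 0.260), with rho 0.77 (exact permutation p = 0.0214, adjusted 0.229). Without HU1 and HU2, farthest from the median of Per2, r was 0.84. Per1 and Per3 had r = 0.78 (exact permutation p = 0.0115, adjusted 0.260) and rho = 0.82 (exact permutation p = 0.0108, adjusted 0.229), with r = 0.61 without HU3 and PBA3.

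Arntl and Per3 ran against each other, with r = -0.69 (exact permutation p = 0.0383, adjusted 0.319) and rho = -0.52 (exact permutation p = 0.162, adjusted 0.470). Without HU2 and PBA3, r was -0.74. That pair had the lowest r of all, but by rho other pairs lay lower. Nr1d1 and Tef, both E-box targets, had r = -0.61 and rho = -0.68 (exact permutation p = 0.0503, adjusted 0.283). Clock and Per2 had r = -0.65 and the same rho. The libraries separate by mitochondrial share into 4 under 20% and 5 others, each set too small for a test: r of Arntl and Per3 was -0.89 and -0.64 in them, and that of Per2 and Tef 0.96 and 0.84. Arntl and Nr1d1, by contrast, had r = 0.995 over those 4 libraries and -0.22 over the other 5, so that relation was not shared.

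Of 10920 tested protein-coding genes outside the list, Ciart had the pattern most like Dbp (r = 0.93 over 9 libraries), ahead of Hsf4 (0.87), Zfp580 and Nupr1l (both 0.86) and Bco1 (0.84). Ciart was at 0.266, 1.21 and 2.70 FPKM in PBA1 to PBA3, 1.19, 3.41 and 1.04 FPKM in HU1 to HU3, and 1.68, 0.443 and 0 FPKM in GC1 to GC3. It followed Dbp down to its lowest library, GC3, where no Ciart read was found (3 reads would be 0.121 FPKM). The genes most like Arntl were Myc (0.92), Orc2 and Clec4a1 (both 0.91), and Ap2a1 and Pcm1 (both 0.90). These are the highest values of many and describe 9 points that share depth and library; no p is given.

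**Figure D4:**
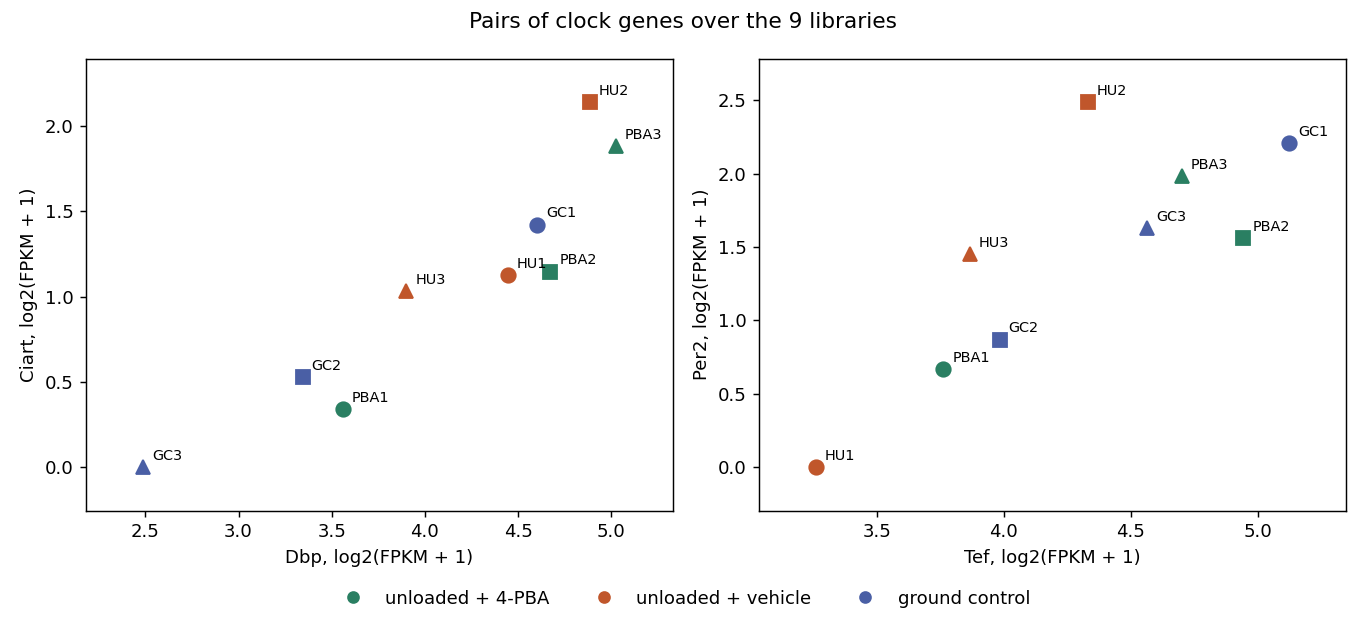
Dbp against Ciart and Tef against Per2, in log2(FPKM + 1), 1 point per library with 4-PBA, HU and GC libraries in separate colours. Both pairs rise together (r = 0.93 and 0.80), and libraries of every group lie along the trend.

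The other genes of the loop gave 0 calls as well. Of 20 listed partners (further activators, repressors, kinases and ubiquitin ligase parts) 13 were tested, and limma called 0 in each comparison, with 2, 2 and 0 at an unadjusted p under 0.05 in HU against GC, 4-PBA against HU and 4-PBA against GC. All genes tested gave 29.8%, 20.1% and 1.31% at that level, so these counts are no result about the partners. The genes were Bhlhe40, an E-box repressor, and Nr1d2, the close relative of Nr1d1. Bhlhe40 averaged 10.6 ± 3.04 FPKM in HU and 5.22 ± 2.36 FPKM in GC, a log2 difference of 0.94 ± 0.32 (limma adjusted p = 0.0906), and Nr1d2 averaged 18.1 ± 4.23 FPKM in HU and 9.53 ± 3.40 FPKM in GC, a difference of 0.89 ± 0.35 (limma adjusted p = 0.126). Against the same HU libraries, 4-PBA differed by -0.85 ± 0.32 in Bhlhe40 (limma adjusted p = 0.191) and by -0.88 ± 0.35 in Nr1d2 (limma adjusted p = 0.203). The partners' median log2 difference was 0.22, -0.02 and 0.10 in the 3 comparisons.

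Among 18 listed genes that the clock is known to time in kidney or other tissues, 16 were tested. In HU against GC 1 rose and 2 fell, where 10.2% of all genes tested were called. Wee1, a cell cycle kinase and E-box target, rose to 5.27 ± 0.427 FPKM in HU, against 1.07 ± 1.01 FPKM in GC, by 1.70 ± 0.41 on the log2 scale (limma adjusted p = 0.0339). The distal tubule cotransporter of sodium and chloride, Slc12a3, fell to 3.32 ± 2.56 FPKM in HU, against 45.4 ± 11.4 FPKM in GC, a log2 difference of -3.60 ± 0.48 (limma adjusted p = 0.00658). Slc9a3, the proximal tubule sodium-proton exchanger, fell to 2.50 ± 0.764 FPKM in HU, against 13.4 ± 2.58 FPKM in GC, a log2 difference of -2.05 ± 0.32 (limma adjusted p = 0.0102).

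In 4-PBA against HU, 2 of the 16 rose and 0 fell, where 2.69% of all genes tested were called. Slc12a3 averaged 33.6 ± 12.3 FPKM in 4-PBA and 3.32 ± 2.56 FPKM in HU, a log2 difference of 3.15 ± 0.48 (limma adjusted p = 0.0146), and Slc9a3 averaged 9.17 ± 3.36 FPKM in 4-PBA and 2.50 ± 0.764 FPKM in HU, a difference of 1.51 ± 0.32 (limma adjusted p = 0.0432). In 4-PBA against GC limma called 0 of 16, with 0 at an unadjusted p under 0.05; Wee1 differed by 0.90 ± 0.41 (limma adjusted p = 1). Usp2, a clock-timed deubiquitinase whose pattern was not called, was at 11.2, 25.6 and 25.1 FPKM in PBA1 to PBA3, 5.04, 11.8 and 7.99 FPKM in HU1 to HU3, and 30.2, 13.7 and 18.5 FPKM in GC1 to GC3. Like Tef, it was high in PBA2, PBA3 and GC1.

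Markers of the tubule segments that carry these transporters were as follows. In HU against GC, where 10.2% of all genes tested were called, 7 of 10 proximal tubule markers fell and 0 rose; in 4-PBA against HU 1 rose and 0 fell. Of 4 distal convoluted tubule markers 1 fell in HU against GC, Slc12a3 itself, while Trpm6 differed by -0.02 ± 0.34, Calb1 by -0.60 ± 0.46 and Pvalb by -0.85 ± 0.55 and were not called, with summed levels of the 4 at 78.1 to 142 FPKM in 4-PBA, 27.8 to 101 in HU and 112 to 126 in GC. Of 6 fibroblast markers 1 rose and 0 fell, at a sum of 9.67 to 197 FPKM in 4-PBA, 106 to 213 in HU and 11.3 to 37.0 in GC. No gene of these 3 lists was at 0 in all libraries of a group. With the mitochondrial share as a covariate none of these output calls held: limma adjusted p was 0.237 for Wee1, 0.0566 and 0.0634 for Slc12a3, and 0.086 and 0.151 for Slc9a3 (HU against GC, then 4-PBA against HU). The log2 differences in that fit were 1.33 for Wee1, -3.70 and 3.24 for Slc12a3, and -1.63 and 1.13 for Slc9a3, and over all genes tested calls numbered 99 and 121, against 1292 and 340 without the covariate. All 3 HU libraries had a high mitochondrial share, so the covariate fit cannot fully separate group from share. The Wee1 call was also lost when any library of HU or GC was left out, at limma adjusted p of 0.0617 to 0.12. Slc9a3 lost its call in HU against GC without GC1 (limma adjusted p = 0.059) or GC3 (0.0561), and in 4-PBA against HU without any 1 library other than PBA3 (0.0592 to 0.172). Slc12a3 lost its call in 4-PBA against HU without PBA2 (limma adjusted p = 0.0712).

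Glucocorticoids can set peripheral clocks and induce Per1 directly, and 8 of 9 listed glucocorticoid-responsive genes were tested. In HU against GC 1 rose and 0 fell, a share close to the 10.2% called over all genes. Klf9, a transcription factor that is both hormone-responsive and clock-timed, rose to 19.5 ± 0.589 FPKM in HU, against 3.42 ± 1.11 FPKM in GC, by 2.25 ± 0.47 on the log2 scale (limma adjusted p = 0.0232). It was at 7.95, 2.10 and 12.3 FPKM in PBA1 to PBA3, with a difference from HU of -1.51 ± 0.47 (limma adjusted p = 0.126). The other 7 tested genes were not called in HU against GC, where Tsc22d3 differed by 1.19 ± 0.52 and Fkbp5 by 0.89 ± 0.39, and 0 of 8 were called in each comparison of 4-PBA. Zbtb16, the listed gene that did not pass the filter, averaged 0.210 ± 0.213 FPKM in 4-PBA, 1.81 ± 0.925 in HU and 0.0349 ± 0.0522 in GC. Per1 differed by -0.06 ± 0.58 between the same HU and GC libraries. Whether glucocorticoids had a part in any of these values was not tested. With the mitochondrial share as a covariate the limma adjusted p of Klf9 was 0.202, and it was 0.0578 to 0.105 without HU3, GC1, GC2 or GC3, each left out in turn.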

How the data were processed

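Per the labels' protocols, the 9 kidney samples (3 per group) were sequenced in paired ends from directional libraries of poly(A) RNA. CASAVA, cutadapt and HISAT2 were used with mm10, per the submitters' processing notes; the read counter, its strand setting and all versions were not given in the sources used here. FPKM for 54532 genes were deposited by the authors. Value times gene length gave whole reads for 100% of values within 0.01, so reads per library could be recovered (7595631 to 15141784). A count model had been planned for the case that the files held counts; as they held FPKM, limma 3.58.1 in R 4.3.3 was fitted on log2(FPKM + 1), with trend, all 9 samples and 3 groups in 1 fit without a block. The scale understates changes of low genes. Genes of at least 1 FPKM in at least 3 libraries were tested (12642), with Benjamini-Hochberg adjusted p under 0.05 as the call.

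Exact permutation and counting intervals used scipy 1.17.1 in Python 3.11.15 (Clopper-Pearson for ratios of reads, floor of 3 reads), and figures matplotlib 3.10.9. The code was tested on simulated data. Of 36 library pairs, 0 agreed within sampling noise (chi-square over genes outside the mitochondrial genome with at least 20 reads in the pair). No sample column was unassigned. Members and gene lists were chosen with earlier results of these data known. Named genes were all members, every called gene of the lists of partners, outputs and glucocorticoid-responsive genes and, where fewer than 4 were called, those of smallest p up to 4, and the 5 genes most like Arntl and Dbp. Genes so chosen but not called are given only in part, and marker lists are given as counts. Gene positions are those of the deposited table, which follow GENCODE mouse release 21; promoter sequences are RefSeq's (GRCm38.p6), with no entry for Per2. Alternatives covered pseudocounts of 0.1 and 4, filters, scaling, limma-voom on recovered reads, fits of 6 samples, a replicate block, the mitochondrial share as covariate, library weights, protein-coding genes, and libraries left out.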

Additional observations from a re-analysis of the deposited data

How the results depend on the processing

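Calls among the clock genes stayed at 0 in 4-PBA against HU and in 4-PBA against GC under all alternatives run. In HU against GC 1 was called with values rescaled to total reads (Tef, -1.73, limma adjusted p = 0.0487) and 1 with library weights (Nr1d1, 1.14, limma adjusted p = 0.0281), and 0 otherwise. Those fits called 2339 and 3983 of all 12642 genes tested, against 1292 in the main fit. Total-read scaling moved the median of all genes tested to -0.78 in HU against GC and 0.71 in 4-PBA against HU, since mitochondrial reads then count as depth; differences are read relative to it. Of 548 recomputed log2 differences of clock genes, 488 kept direction and side of the threshold, 58 reversed and 2 became called.

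Reversals in HU against GC: total-read scaling gave -0.15 for Clock, -0.31 for Cry2, -0.22 for Nr1d1 and -0.079 for Dbp; library weights gave -0.13 for Dbp. Per1 was 0.094 with scaling to reads outside the mitochondrial genome and 0.028 without PBA3 and GC3 together. With single libraries left out the ranges were -0.44 to 0.42 for Per1, -0.84 to 0.40 for Per2 and -0.40 to 0.14 for Per3.

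In 4-PBA against HU, total-read scaling gave 0.082 for Clock, 0.40 for Cry2 and 0.43 for Nr1d1. Library weights gave -0.076 for Per1, -0.58 for Per2, -0.029 for Per3 and -0.32 for Dbp; without PBA3 and GC3 together Per1 was -0.48, Per2 -0.20 and Dbp -0.29. Scaling to reads outside the mitochondrial genome gave -0.0085 for Per1 and -0.12 for Dbp, medians of ratios -0.016 for Dbp, and a pseudocount of 4 gave -0.019 for Per2. Single libraries left out gave -0.48 to 0.45 for Per1, -0.57 to 0.68 for Per2 and -0.29 to 0.44 for Dbp.

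In 4-PBA against GC, library weights gave 0.19 for Clock, -0.91 for Per1, -0.72 for Per3, -0.047 for Cry2 and -0.45 for Dbp. Without PBA3 and GC3 together Clock was 0.15, Per1 -0.46 and Per3 -0.22, and with libraries under 20% mitochondrial reads only, an alternative added after the data were seen, they were 0.15, -0.46 and -0.22. Per1 was also -0.024 with a pseudocount of 0.1, -0.10 with total-read scaling, -0.36 with limma-voom and -0.11 with the mitochondrial share as covariate, and Clock 0.012 with scaling to reads outside the mitochondrial genome. Single libraries left out gave -0.17 to 0.16 for Clock, -0.54 to 0.39 for Per1, -0.51 to 0.20 for Per2, -0.12 to 0.69 for Per3 and -0.37 to 0.27 for Tef. The cause of these shifts was not tested.

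With the replicate number as a block, 0 clock genes were called in each comparison, and over all genes tested 904, 137 and 0 were called, against 1292, 340 and 0 without the block. Same-numbered libraries deviated from their group means with correlations of -0.20 to 0.29, and 2 of 9 libraries correlated best with their own number, so the samples share only a number. Of the genes outside the 10, Slc12a3 kept its call under 21 of 22 settings in HU against GC and 18 of 22 in 4-PBA against HU, Slc9a3 under 20 and 7 of 23, Wee1 under 12 of 22 and Klf9 under 16 of 23. Depth limits Arntl and Cry1, with at most 159 and 42 reads in a library.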

Other observations

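Of the 36 pairs of libraries, PBA2 and GC1, from different groups, had the lowest chi-square per degree of freedom (11.9). It was taken over genes outside the mitochondrial genome with at least 20 reads in the pair, and it also depends on read depth. Both libraries had Per3 over Arntl above 16 and Dbp over Nr1d1 above 2. PBA3 had such ratios too (at least 64.2 and 2.42) but was far from both by this measure. Its chi-square per degree of freedom was 138.9 with PBA2 and 126.3 with GC1.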
